A study of Arabidopsis thaliana with 12 samples.

Results

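DI21 (AT4G15910) and AT1G05340 are 2 nuclear genes of Arabidopsis thaliana with links to stress, taken here from the 691 genes that the array named by a feature of their own. They were chosen by name, as genes for which the platform annotation gives a feature with exactly 1 gene, and the difference between the genotypes was known when they were chosen. Their genotype differences are therefore given as a description, with no test. Each gene had 1 such feature, numbered 676 for DI21 and 1243 for AT1G05340. A further feature, 1425, is shared by AT1G05340 and 4 other genes and is described apart.

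DI21 is named for drought induction, and its transcript is known to accumulate when plants lose water and in response to the hormone abscisic acid. It encodes a small protein of a late embryogenesis abundant (LEA) family, whose members are known for accumulation in drying seeds and in water-stressed tissue. AT1G05340 encodes a short protein of the cysteine-rich transmembrane (CYSTM) family. These proteins end in a membrane segment rich in cysteine, and many of their transcripts are known to respond to stress.

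The samples were total RNA from wild type (WT) and from the pete1 pete2 double mutant, both of ecotype Columbia 0 and grown on MS media, a mineral salt medium. The mutant is described as without either isoform of plastocyanin. Plastocyanin is a small copper protein that hands electrons to photosystem I inside the thylakoid. The labels give no tissue, age or allele, and the array table assigned 0 features to PETE1 or PETE2, so the genotypes could not be checked from their own transcripts. Each genotype had 6 samples, and the values were intensities in relative units.

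Across the series, 3439 features were read in 12 samples, with column totals between 3493 and 3778 and column medians between 0.341 and 0.659. Samples 1 and 2, 3 and 4, and 5 and 6 of each genotype stood apart as close pairs. Their median absolute log2 difference was 0.0957 to 0.134, against 0.300 to 0.540 for other samples of a genotype. Each pair was averaged and counted as 1 replicate, which gave 3 per genotype. Of the markers listed for green tissue 2 of 6 were measured, PSBW, a subunit of photosystem II, and PSAN, a subunit of photosystem I. The WT mean of PSBW was 32.4 ± 12.7 normalised units and its mutant mean 44.1 ± 14.6, and the means of PSAN were 2.47 ± 0.405 and 2.67 ± 0.363 (SD, n = 3). None of the 6 root and seed markers was measured, so the share of green tissue was not tested. In RNA from whole tissue, fewer cells of a type and less RNA per cell cannot be told apart.

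DI21 had a lower signal in the mutant than in WT in every sample. In WT its deposited intensity was 0.629 and 0.604 in samples 1 and 2, 0.406 and 0.445 in samples 3 and 4, and 0.393 and 0.358 in samples 5 and 6. In the mutant it was 0.209 and 0.190, 0.335 and 0.347, and 0.162 and 0.200 in the same order. The highest mutant sample, 4, thus lay just below the lowest WT sample, 6, and the genotypes did not overlap. Mutant samples 3 and 4, which held the highest mutant values of DI21, were also the samples with the highest column medians, 0.659 each.

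Quantile normalization, which gives every array the same distribution of values, brought the mutant samples of DI21 closer together. The normalised intensity of the WT pairs was 0.499, 0.441 and 0.357, and that of the mutant pairs was 0.261, 0.247 and 0.300. Samples 5 and 6 were the lowest WT pair and the highest mutant pair, and the WT value was still 1.19 times the mutant value there. The WT mean was 0.432 ± 0.0713 and the mutant mean 0.269 ± 0.0273 (SD, n = 3), a log2 difference of -0.67 (SE 0.16). WT was thus 1.60 times the mutant on the scale of log2 means.

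All 3 mutant pairs lay below all 3 WT pairs for 1 of the 2 genes, DI21, as they did for 4.36% of the 3438 tested features, which held 1 averaged value for each gene. Because this contrast was known when the gene was chosen, nothing is read from that count. Among the 691 named genes, 27 had a more negative log2 difference than DI21. Its SD between replicates, pooled over the genotypes on the log2 scale, was 0.20, below the median of 0.37 over named genes, and 17.2% of named genes had a smaller one. The samples of a pair differed by 0.058 to 0.28 on the log2 scale for DI21.

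AT1G05340 did not separate the genotypes. In WT its deposited intensity was 0.660 and 0.723 in samples 1 and 2, 0.494 and 0.579 in samples 3 and 4, and 0.479 and 0.407 in samples 5 and 6. In the mutant it was 0.392 and 0.413 in samples 1 and 2, 0.679 and 0.816 in samples 3 and 4, and 0.193 and 0.195 in samples 5 and 6. The mutant thus held both the highest and the lowest values of the gene, and its order over the mutant pairs was that of the column medians.

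After normalization the WT pairs of AT1G05340 measured 0.559, 0.547 and 0.423, and the mutant pairs 0.509, 0.587 and 0.318. Mutant samples 3 and 4 stood above every WT pair, and mutant samples 5 and 6 below every one. The WT mean was 0.510 ± 0.0752 and the mutant mean 0.471 ± 0.139 (SD, n = 3), a log2 difference of -0.15 (SE 0.28). The difference was smaller than its standard error and rested on 1 pair, as it was 0.11 without mutant samples 5 and 6. The mutant pairs spanned 0.89 on the log2 scale and the WT pairs 0.40.

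**Figure D1:**
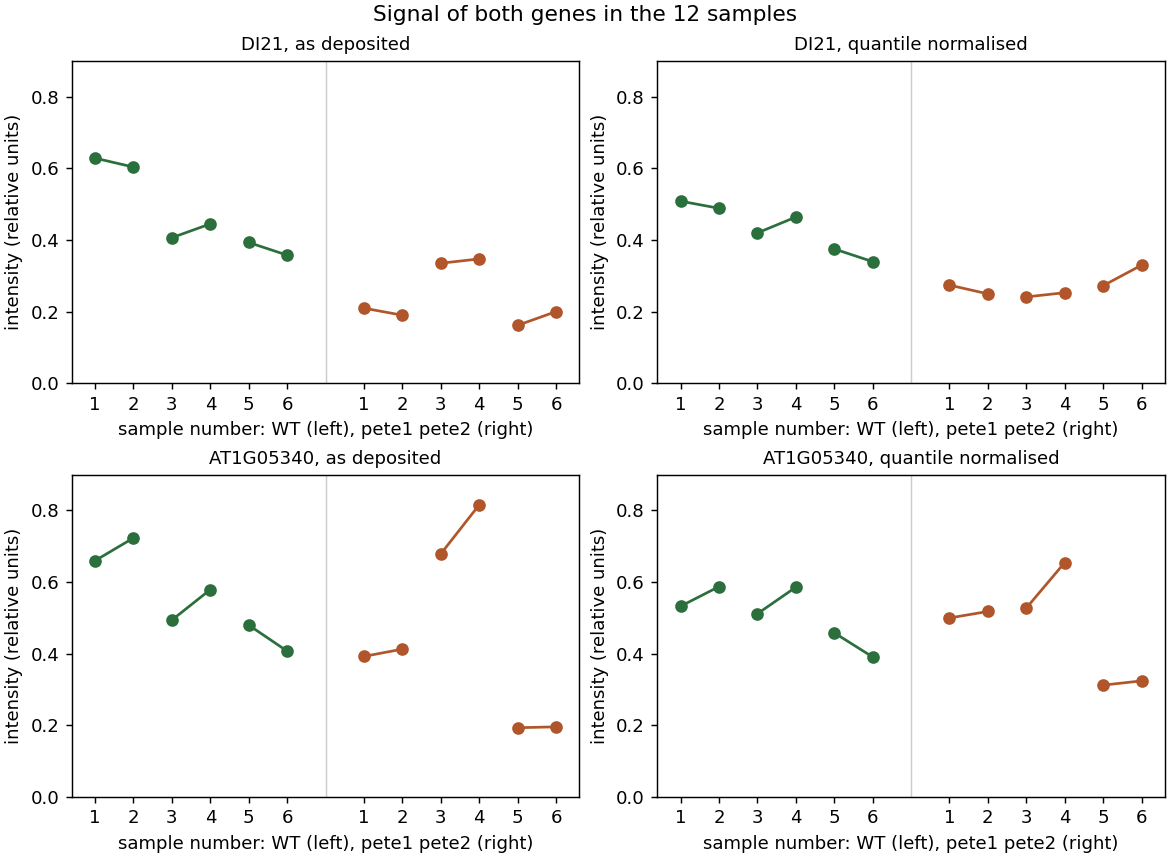
Intensity of DI21 (top) and AT1G05340 (bottom) in relative units in each of the 12 samples, as deposited (left) and after quantile normalization (right). Points are samples, lines join the 2 closely agreeing samples of a pair, WT is green and pete1 pete2 is brown. The mutant points of DI21 lie below all WT points in both panels, while those of AT1G05340 lie on both sides of the WT points.

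The position of each gene within its own array needs no scaling between arrays. Quantile normalization is built on that position, so it is no separate check on the normalised values. DI21 exceeded 33.9% to 50.2% of the features of a WT array and 23.5% to 32.8% of those of a mutant array. These ranges did not overlap. AT1G05340 exceeded 39.3% to 56.4% of features in WT and 30.9% to 61.4% in the mutant, a range that took in the whole WT range.

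The size of both differences depended on how arrays were scaled. As deposited, the log2 difference of DI21 was -1.002 and that of AT1G05340 was -0.50, but the median of all features was also shifted, to -0.27. Relative to that median, DI21 had -0.73 and AT1G05340 had -0.22, against -0.66 and -0.14 after quantile normalization. With each array scaled to its total, the differences relative to the median of all features were -0.73 and -0.22. The mutant pairs of DI21 lay below all WT pairs under all 4 scalings, and those of AT1G05340 overlapped with WT under all 4.

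Features with neighbouring numbers were compared as well, and their places on the array were not used. The 5 features on each side of DI21 by feature number had a median log2 difference of -0.074, and 0 of the 10 were more negative than DI21. With their median subtracted in each sample, the log2 difference of DI21 was -0.60, and all mutant pairs stayed below all WT pairs. Around AT1G05340 the 10 features had a median of -0.095, and 4 of them were more negative than the gene. Subtracting their median turned its log2 difference to 0.0075.

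**Figure D2:**
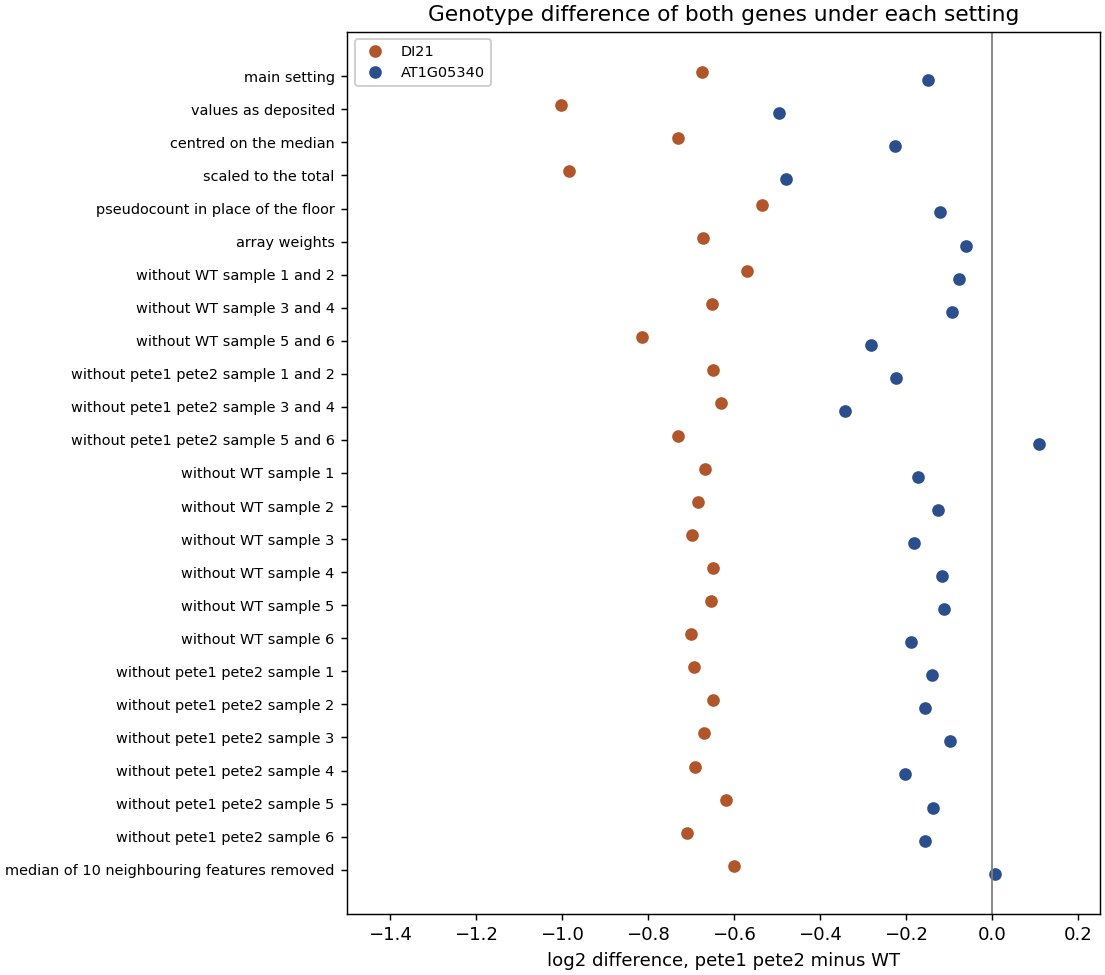
Log2 difference, pete1 pete2 minus WT, of DI21 (brown) and AT1G05340 (blue) under the main setting and each alternative run for them. These include the omission of each sample or pair. Filters on dim features, the block and variance models, the 12 samples taken singly and the threshold of 0.1 are not shown. Each point is 1 fit. DI21 lies between -1.002 and -0.54 throughout, and AT1G05340 lies between -0.50 and 0.11 and crosses 0.

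The 2 genes differed from each other in their pattern over samples. Over the 6 pair means, Pearson's r between them was 0.18 and Spearman's rho -0.029, and r was -0.099 once each genotype's mean was removed. These are descriptions over 6 points that share arrays and scaling, with fewer free values once the genotype means are removed. In WT both genes were lowest in samples 5 and 6. In the mutant that pair was the highest for DI21 and the lowest for AT1G05340.

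Feature 1425, added after its values had been seen, is annotated with AT1G05340 together with 4 relatives from the CYSTM family, AT1G56060, AT2G32190, AT2G32200 and AT2G32210. Its signal cannot be divided among the 5 genes. The normalised intensity of its WT pairs was 1.18, 1.47 and 1.07, and that of its mutant pairs was 1.23, 0.878 and 0.865. Mutant samples 1 and 2 lay within the WT range and the other mutant pairs below it. The WT mean was 1.24 ± 0.206 and the mutant mean 0.990 ± 0.205 (SD, n = 3), a log2 difference of -0.33 (SE 0.20). Over the 6 pair means, r with the feature of AT1G05340 alone was 0.47.

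Other genes from the stress lists and stress words used here were scarce among the named features. The lists and words do not cover every named gene with a link to stress. Of 123 genes on 7 lists of stress responses, 1 had a feature of its own, and a search of gene names for 12 stress words added 1. The LEA relatives of DI21 and the CYSTM relatives of AT1G05340 had 0 such features, as did the lists for drought, abscisic acid and cold, for heat and light, for hormones and pathogens, and for senescence. Neither of the 2 measured genes passed limma's test with Benjamini-Hochberg adjustment at 0.05, in either direction, where 0.0291% of tested features passed. 1 of the 2 had an unadjusted p under 0.05 in limma, as had 251 of the 3438 tested features (7.3%).

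That gene was AT5G02020 (SIS), named as a salt-induced serine-rich gene. All its mutant pairs lay below all its WT pairs, as for DI21 and for 4.36% of tested features. Its normalised intensity was 0.367, 0.289 and 0.267 in the WT pairs and 0.234, 0.234 and 0.207 in the mutant pairs. The genotypes did not overlap, though the lowest WT pair was close to the highest mutant pair. The log2 difference was -0.44 (SE 0.15) and the limma adjusted p 0.607. SIS passed when the 12 samples were taken as independent (limma adjusted p = 0.0469), but not with the pairs as a random block (0.866). In the fit with independent samples, p-values can be too small, and 224 of the 3438 tested features passed.

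The other gene was AT3G52960, which encodes a peroxiredoxin, an enzyme that reduces peroxides. Its normalised intensity was 3.35, 2.09 and 2.99 in the WT pairs and 2.16, 1.78 and 2.67 in the mutant pairs, and the genotypes overlapped. The log2 difference was -0.34 (SE 0.25) and the limma adjusted p 0.989. The median of these 2 genes was -0.39, beside -0.01 for all tested features, and 2 genes do not stand for stress genes as a group. Some named genes with links to stress were missed by the lists and words, and their log2 differences had both signs. Examples picked after the data had been seen are CHL (0.67), CCS (0.46), SRX (0.26) and XERICO (0.08), but NTRC (-0.19) and DRT100 (-0.29). The 6 shared features described below had a median of 0.02, with 4 positive and 2 negative.

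**Figure D3:**
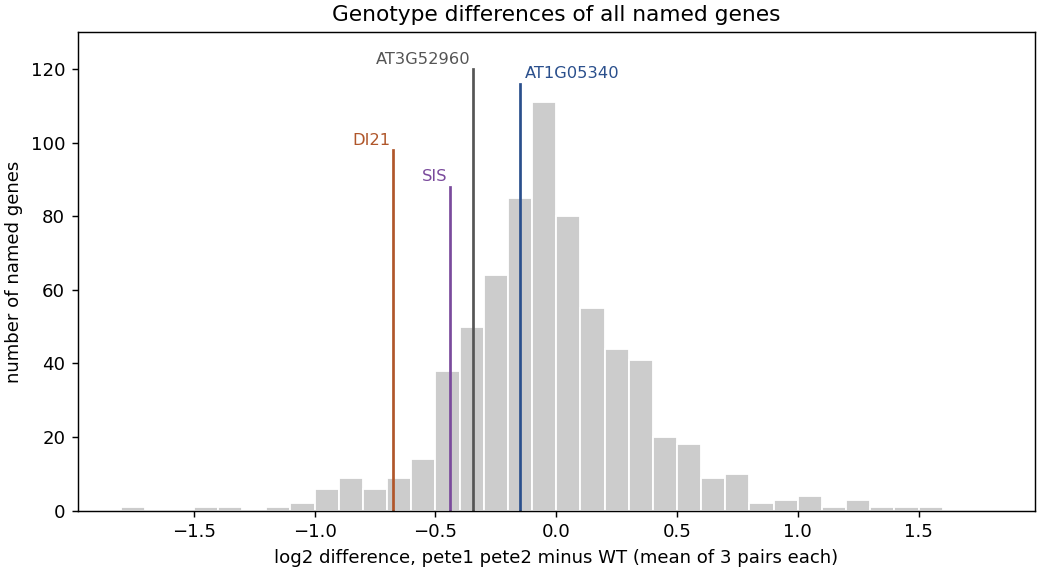
Number of named genes in bins of the log2 difference, pete1 pete2 minus WT, over 691 genes (grey bars), with lines at DI21, AT1G05340, SIS and AT3G52960. Line heights have no meaning. DI21 lies at -0.67, where 27 genes were lower, and AT1G05340 lies at -0.15, where 249 were lower.

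Listed stress genes were also found on 6 features shared by several genes, feature 1425 among them, and 0 of the 6 passed limma's test, nor had any an unadjusted p under 0.05, a level that 7.3% of tested features reached. These features were added after the data had been seen. COR15A and COR15B, a pair of cold-regulated genes for proteins that protect chloroplast membranes in freezing, shared features 615 and 3484. Feature 615 measured 0.374, 0.545 and 0.377 in the WT pairs and 0.395, 0.268 and 0.411 in the mutant pairs, with a log2 difference of -0.27 (SE 0.25). Feature 3484 had one of 0.03 (SE 0.29). The genotypes overlapped on both features.

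The ascorbate peroxidases of the chloroplast, TAPX in the thylakoid and SAPX in the stroma, remove hydrogen peroxide and shared features 2359 and 4595. On feature 4595 all mutant pairs lay above all WT pairs, as for 5.56% of tested features, with 0.297, 0.466 and 0.540 in WT and 0.780, 0.554 and 0.643 in the mutant. Its log2 difference was 0.63 (SE 0.27) and its limma adjusted p 0.769. On feature 2359 the log2 difference was 0.12 (SE 0.31), and the genotypes overlapped, so the 2 features of the same genes did not give the same picture. Feature 3511, shared by the glutathione reductases GR1 and GR2, had a log2 difference of 0.02 (SE 0.32).

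Named genes whose pattern was most like that of DI21 were ranked by Pearson's r over the 6 pair means, among 606 named genes above 0 in every sample. The 5 highest were AT5G53920 (r = 0.95), AT5G56850 (0.95), AT3G15140 (0.94), AT5G63290 (0.94) and AT2G36920 (0.93). Their log2 differences lay between -0.65 for AT5G53920 and -0.34 for AT5G63290, a sign that the ranking itself favours, since r took in the genotype difference of DI21. In all, 7 genes had an r over 0.9, and the median over the 606 was 0.08. With each genotype's mean removed, the 5 highest were AT2G42490 (0.99), AT4G35980 (0.98), AT2G37880 (0.97), AT4G13220 (0.93) and AT2G05120 (0.92). Their log2 differences lay between -0.06 and 0.24, against -0.67 for DI21. This ranking takes no account of the difference between genotypes, and 6 of the 606 genes had an r over 0.9 in it. Removing the genotype means leaves fewer free values than the 6 points, so a high r is easier to reach.

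For AT1G05340 the 5 highest were AT2G32640 (r = 0.96), AT4G29750 (0.93), AT2G21960 (0.93), AT5G44150 (0.92) and ETFQO (0.92), the last a flavoprotein of mitochondrial electron transfer. All 5 were lowest in mutant samples 5 and 6, as AT1G05340 was, which the ranking likewise favours. The swing was far wider in AT4G29750, which measured 4.94 in mutant samples 3 and 4 and 0.172 in mutant samples 5 and 6. With each genotype's mean removed, the 5 highest were AT1G32220 (0.99), AT3G15490 (0.98), AT5G44150 (0.98), AT1G63720 (0.97) and ETFQO (0.97). Their log2 differences lay between -0.92 for AT1G32220 and 0.06 for ETFQO. Here 20 of the 606 genes had an r over 0.9. These values of r are descriptions over 6 points on shared arrays, with fewer free values once the genotype means are removed.

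**Figure D4:**
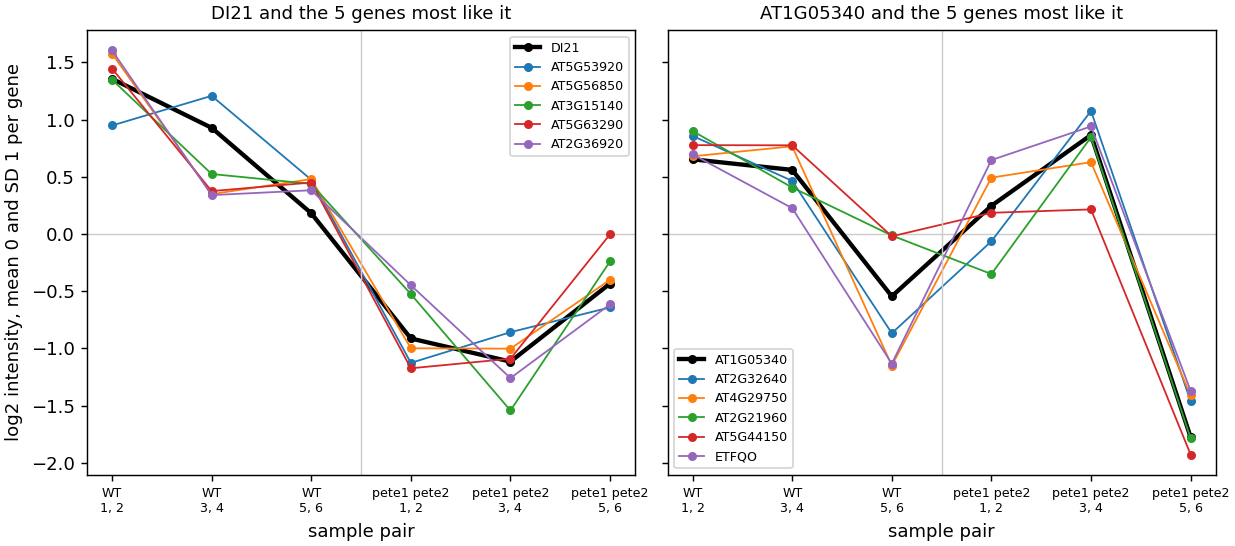
Normalised log2 intensity over the 6 sample pairs for DI21 (left) and AT1G05340 (right), in black, and the 5 named genes with the highest Pearson's r to each, in colours. Each gene was set to a mean of 0 and an SD of 1. On the left all WT points lie above the mutant points of the same gene, and on the right every gene is lowest in mutant samples 5 and 6.

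Of the 4 named genes with a feature about as bright as that of DI21 in WT, 1 had a negative log2 difference. The next brighter ones were AT3G28460, with a log2 difference of 0.15 (SE 0.18), and AT5G56850, with -0.44 (SE 0.13). The next dimmer ones were AT3G29185, with 0.39 (SE 0.16), and AT5G02850, with 0.16 (SE 0.13). Around AT1G05340 the next brighter were AT4G33480, with 0.01 (SE 0.36), and AT1G50750, with -0.21 (SE 0.56), and the next dimmer were AT1G74730, with -1.10 (SE 0.69), and AT4G40080, with -0.03 (SE 0.13).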

How the data were processed

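The authors deposited a table of linear intensity values, 1 column per sample, with a top of 100. The scanner, background correction and scaling are not given in the sources used here. Arrays were brought to 1 distribution by quantile normalization, a floor was set at the 1st percentile of the positive deposited values (0.0225), and log2 was taken. Samples 1 and 2, 3 and 4, and 5 and 6 of a genotype were averaged on the log2 scale, giving n = 3. No label tells whether samples came from separate plants, so p-values and SDs cover the spread among these samples alone, and that may be technical. The number of arrays limits the precision, and 3 against 3 cannot give a permutation p below 0.1.

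A feature took a gene's name only where the platform annotation listed that gene alone. TAIR10.1 gene names, used without coordinates, were found for 690 of the 692 identifiers. The test across 3438 features was two-sided and used lmFit and eBayes of limma 3.58.1 (R 4.3.3), with p-values adjusted by Benjamini-Hochberg. It was also run on simulated data, and nothing about the genes described here is read from that run. SE values are limma's.

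The genes and lists were chosen with earlier results of these data known. Named are the 2 genes, the measured stress genes, the 5 genes most like each gene by r, with and without genotype means, and the 2 features next to each in WT brightness on either side. A few further genes with links to stress were added after the data had been seen. The stress words were searched in the full names of the gene table, which holds no product names. Sequences of the genes are not used here.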

Additional observations from a re-analysis of the deposited data

How the results depend on the processing

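The alternatives were other scalings, a pseudocount of 0.0872, filters on dim features, other variance models, array weights, the 12 samples taken singly, and the omission of each sample or pair. Subtracting neighbouring features was chosen after seeing the data. Background was not given, so dim signals have no known limit. Unless a value shows it, the cause was not tested. The log2 difference of DI21 was negative in every setting run. It was -1.002 as deposited and -0.99 scaled to the total, where the median of all features moved with it, and from -0.81 (without WT samples 5 and 6) to -0.57 (without WT samples 1 and 2) over 18 omissions. That of AT1G05340 ranged over the same omissions from -0.34 (without mutant samples 3 and 4) to 0.11 (without mutant samples 5 and 6). It was -0.50 as deposited, -0.48 scaled to the total and 0.0075 with neighbouring features subtracted.

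Features passing limma's test numbered 1 in the main setting. They numbered 0 as deposited, with median centring and with scaling to the total, 2 without the dimmest 50%, with array weights and at a threshold of 0.1, and 0 to 2 over the omissions. With the 12 samples taken as independent 224 passed, and 19 with a random block on the pairs. With the replicate number as a block 0 passed. Same-numbered pairs of the 2 genotypes deviated together with r of 0.32, 0.0006 and 0.39. For differently numbered pairs r lay between -0.40 and 0.16. These values do not settle whether the numbers pair the samples. Of the 2 genes from the stress lists and words, 1 passed with the 12 samples as independent and 0 in the other settings, the replicate block included. Without the dimmest 50% of features 1 of the 2 was left, and neither DI21 nor AT1G05340.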
